A study of Saccharomyces cerevisiae with 4 samples.

Results

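The wild-type early log transcriptome described here comes from 2 of the 4 libraries of a budding yeast RNA-seq series, both made from the strain JRY2334. The strain is a MATa haploid of the W-303 background. It carries mutant alleles in pathways for adenine (ade2-1), histidine (his3-11,15), leucine (leu2 with the mutations 3 and 112), tryptophan (trp1-1) and uracil (ura3-1), and the arginine permease mutation can1-100. Per the labels it was grown in the rich glucose medium YPD to early log phase with no treatment, washed in PBS and frozen, and the 2 libraries are biological replicates, called replicate 1 and replicate 2 below. Total RNA was made into directional libraries by a commercial service. The other 2 libraries, from a strain without tRNA genes on chromosome III, were not used.

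Levels are in TPM, the transcript share that kallisto reports. TPM divide each reading frame's estimated read count by its effective length, the number of positions at which a fragment can start, and scale the library to a total of 1000000. Of 6706 reading frames listed, YSH1, ATG7, LTO1 and MSK1 were left out and the remaining 6702 were rescaled to that total in each library and ranked by the mean of both. The 4 frames left out held 39.6% and 30.6% of the estimated counts in replicates 1 and 2, and their lengths in the tables exceed their annotated coding lengths (2715 against 2340 bases for YSH1, for example). All values are descriptions of 1 strain in 1 condition, so no test was run.

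Yeast in glucose ferments sugar to ethanol even when oxygen is present, and represses the genes for other sugars, for gluconeogenesis and for much of respiration. Fast growth needs many ribosomes, and transcripts of ribosomal proteins and of glycolytic enzymes are known to be abundant in this state. A MATa cell makes the pheromone a-factor and the receptor for alpha-factor, while its silent mating-type loci HML and HMR are repressed.

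Messages were concentrated in few reading frames. In the mean of both libraries 97 frames, 1.45% of those ranked, held 50% of the TPM, with 96 in replicate 1 and 98 in replicate 2. The 10 highest frames held 19.4%, the 1000 highest held 85.4% and 85.6% in replicates 1 and 2, and the 3351 lowest frames held 3.07% and 2.96%. The median frame stood at 21.5 TPM in replicate 1 and 20.8 TPM in replicate 2. Nearly every frame had some signal, since 6354 (94.8%) reached 1 TPM, 4763 (71.1%) reached 10 TPM, 1057 (15.8%) reached 100 TPM and 195 (2.91%) reached 1000 TPM. A mean of 0 was listed for 160 frames. The last frames within the upper 50% were RPL1B, RPL26B and RPS19B (1782 and 2027 TPM in replicates 1 and 2), and the next below were RPS17A (1868 and 1913 TPM) and RPS23B, so this border fell among ribosomal protein genes of overlapping level.

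**Figure D1:**
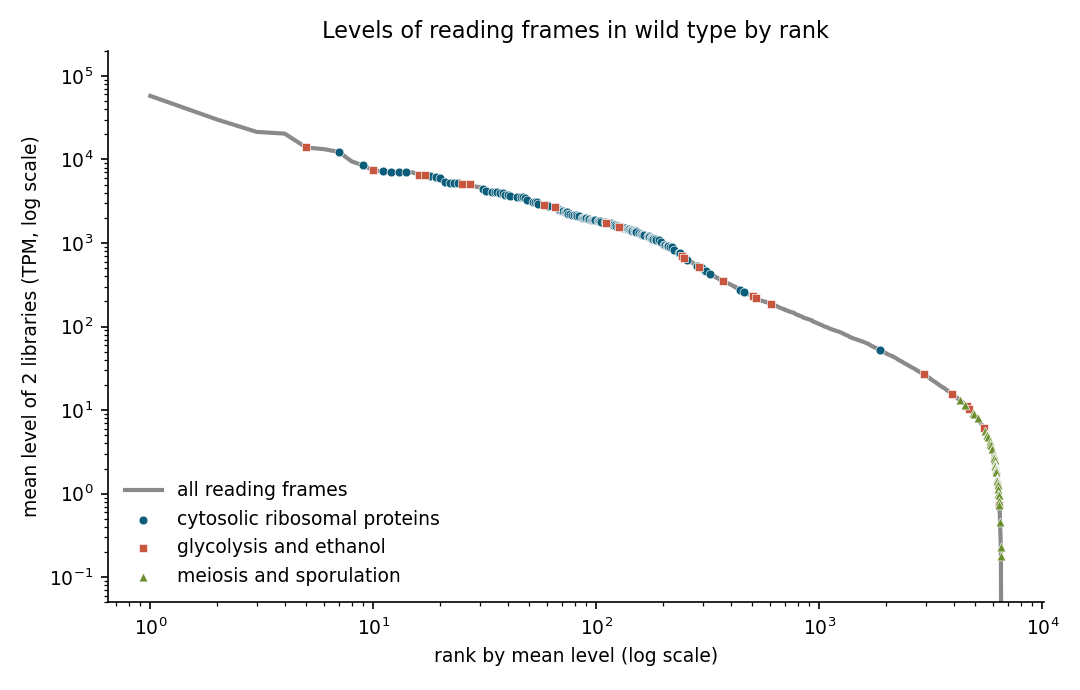
Mean level of each reading frame in the 2 wild-type libraries (TPM, log scale from 0.05) against its rank (log scale), with 3 gene lists marked on the curve of all frames. Ribosomal protein genes crowd the upper left, glycolytic genes run from TDH3 at rank 5 to PDC6 at rank 6408, and meiosis genes sit at the steep lower end.

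The depth behind these values was 12.48 M and 19.76 M estimated counts in replicates 1 and 2, of which 7.54 M and 13.71 M fell on ranked frames. For TDH3, 999 bases long, 1 count was worth 0.0849 TPM in replicate 1 and 0.0468 TPM in replicate 2. Length bears on every level given here. The 465 frames under 300 bases make up 6.94% of all frames and held 25.1% and 24.5% of the TPM, but 9.79% when counts were divided by the whole length, because the effective length of a short frame is only a small part of it. Of the 30 highest frames 16 are this short, and 20 of the 30 stayed among the 30 highest by whole length. By whole length 139 frames, and not 97, held 50% of the TPM. A level by whole length, the mean of both libraries, is therefore given below beside many short genes.

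The 30 highest frames were 13 ribosomal protein genes, 6 glycolytic or fermentation genes, 3 genes of the plasma membrane or cell wall, both a-factor genes, TEF2 for translation elongation factor EF-1 alpha, and 5 frames that carry only a systematic name. CCW12, a mannoprotein of the cell wall, had the highest level of any gene with a name, at 27813 and 32101 TPM in replicates 1 and 2 (29957 ± 3032, SD, n = 2). It stayed at rank 2 by whole length. CWP2, another mannoprotein, had rank 6 with 12110 and 14477 TPM (8954 TPM by whole length). TDH3, which makes most of the cell's glyceraldehyde-3-phosphate dehydrogenase, lay beside it with 14074.5 and 13751.5 TPM (13913 ± 228, SD, n = 2), a range inside that of CWP2. Among the 29 neighbouring pairs of the 30 highest frames, 6 had libraries that did not overlap and 23 overlapped, so the order within this group is mostly not set beyond the spread between replicates. By whole length TDH3 stood at rank 3, and PDC1, ENO2, FBA1 and CDC19 were all among the 10 highest.

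**Figure D2:**
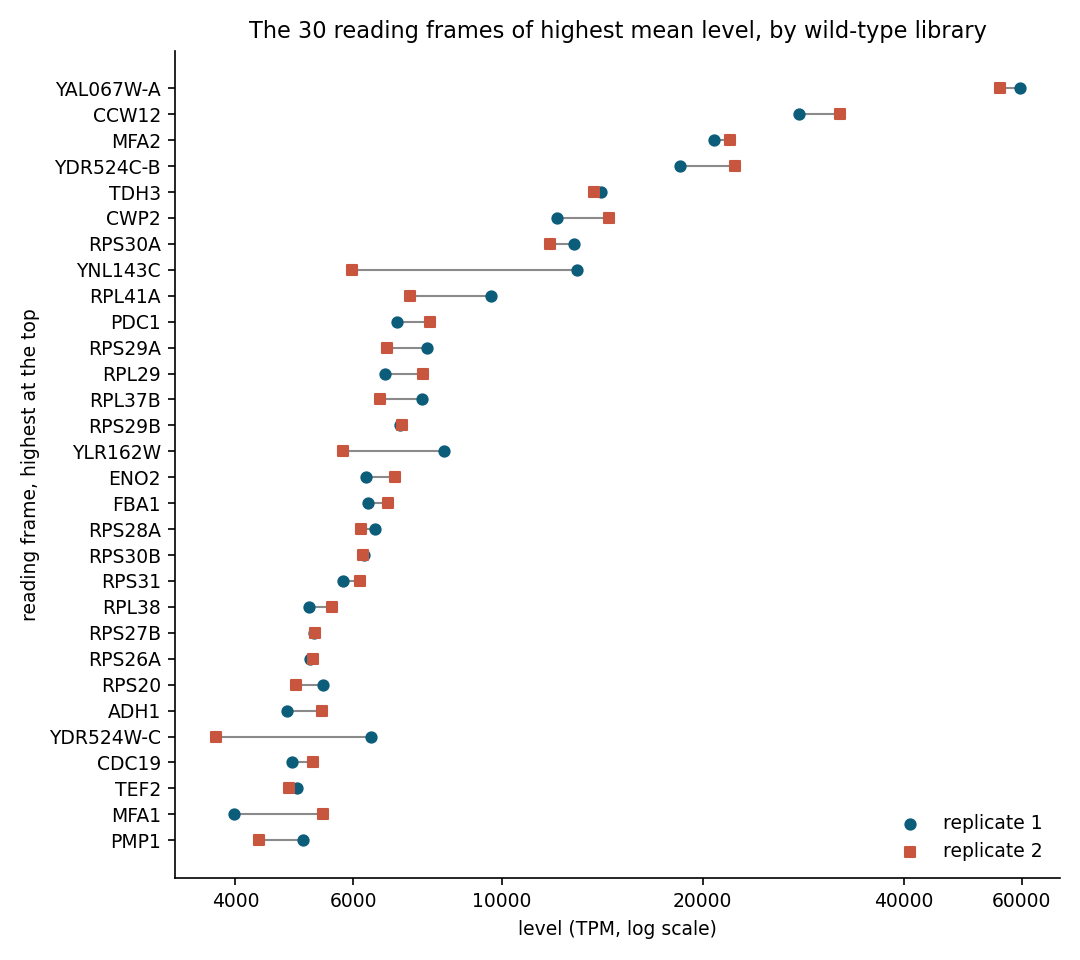
Level (TPM, log scale) of the 30 reading frames of highest mean, circles for replicate 1 and squares for replicate 2, joined by a line. Most neighbouring frames overlap between replicates, and the widest gaps are those of YNL143C and YDR524W-C.

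The 5 highest frames known only by a systematic name need care. YAL067W-A led the whole list at 59532 and 55703 TPM. It is 369 bases long in the tables and 228 in the R64 annotation (chromosome I, 2480 to 2707), and 40.4% of its annotated 31-base words also occur in another coding sequence. YNL143C differed most between replicates among the highest frames, at 12983 TPM in replicate 1 and 5979 TPM in replicate 2, and holds a run of 32 identical bases, all A or all T. YLR162W, at 8204 and 5787 TPM, lies on chromosome XII (489573 to 489929), which also carries the ribosomal DNA, and shares 52 of its 327 words of 31 bases with the 25S ribosomal RNA. YDR524C-B had 18484 and 22320 TPM, and its neighbour YDR524W-C, a frame of 90 bases, had 6373 and 3735 TPM. Across all frames 12 are longer in the tables than in the annotation. They include the 4 left out, YAL067W-A and the arsenite transporter gene ARR3, named after its values were seen, which is listed at 1419 against 1215 bases with 3168 and 2666 TPM. The part that the added length plays in these levels was not tested.

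The gene lists below hold 1029 frames with 58.3% and 60.4% of the TPM in replicates 1 and 2. Each list is read against all frames, whose median was 21.2 TPM in the mean of both libraries.

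Genes of the cytosolic ribosome were the largest class. The 138 genes held 31.9% and 32.2% of the TPM in replicates 1 and 2 (27.6% by whole length), their median was 1750 TPM, and 118 of them reached 1000 TPM against 2.91% of all frames. They filled 63 of the 100 highest places. RPS30A, which encodes a short small-subunit protein, was highest among them at 12828 and 11801 TPM (4210 TPM by whole length). RPL41A, which encodes a peptide of 25 residues, had 9654 and 7298 TPM (3530 TPM by whole length). RPS29A had 7746 and 6748 TPM and RPL29 had 6699 and 7626 TPM, so their ranges overlap. By whole length RPS29A stood at 2028 TPM and RPL29 at 2176 TPM, and RPS31 was highest of the list at 6397 TPM. RPL41A and its copy RPL41B, at 4109 and 3252 TPM, show how near such copies can be. Their coding sequences differ at 1 of 78 bases, and 81.3% of the 31-base words of each occur in the other or elsewhere, so the division of reads between them is an estimate. Both are printed from the R64 reference with the codons that ribosomal protein genes use most for each amino acid in capitals.
RPL41A (chromosome IV, 130407 to 130484, minus strand): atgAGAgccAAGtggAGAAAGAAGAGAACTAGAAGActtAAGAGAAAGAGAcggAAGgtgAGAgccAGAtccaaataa
RPL41B (chromosome IV, 221724 to 221801, minus strand): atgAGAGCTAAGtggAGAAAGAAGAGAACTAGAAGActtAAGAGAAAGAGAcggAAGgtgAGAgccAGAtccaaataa

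Most ribosomal proteins of yeast have a pair of genes left from an ancient genome duplication. Genes whose names end in A and B were taken as 59 pairs. These include RPP1A with RPP1B and RPP2A with RPP2B, which encode separate acidic stalk proteins. In 55 pairs both libraries of the higher member lay above both libraries of the lower one, and the median ratio was 1.64. The A copy was higher in 39 pairs and the B copy in 20. The widest ratio was that of RPL15, with 1698 and 1646 TPM for RPL15A against 49.1 and 55.7 TPM for RPL15B, 31.9-fold. It was followed by RPS28A over RPS28B, 8.22-fold, and RPL8B over RPL8A, 7.21-fold. The 4 pairs whose libraries overlapped were those of RPL24, RPS29, RPS6 and RPS7, for example RPS6A at 1153 and 1136 TPM against RPS6B at 1078 and 1177 TPM. Most of these pairs share stretches of sequence, so each ratio depends on how kallisto divided the shared reads.

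Adding up the copies made the levels of the ribosomal proteins more alike. Summed levels were formed for 81 proteins, 57 with a pair of genes and 24 with a single gene, where the 4 acidic stalk proteins count separately. Their quartiles were 2442 and 4162 TPM, a ratio of 1.70, against 2.22 for all 138 genes taken one by one. By whole length the ratio was 1.36 for summed levels and 1.76 for the 138 genes. Proteins made from 1 gene had a median of 3080 TPM, close to the median of 3147 TPM for proteins made from a pair. Proteins under 300 bases stood at 7163 TPM against 2985 TPM for the others, and at 3451 against 3263 TPM on the scale of whole length, where the gap was much smaller. By whole length the sums ran between 975 TPM for RPL39 and 7316 TPM for RPS26.

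The 23 glycolysis and ethanol genes took 5.47% and 5.81% of the TPM (8.22% by whole length), with a median of 670 TPM. Below TDH3 came PDC1, the main pyruvate decarboxylase, at 6968 and 7818 TPM, then ENO2, an enolase, at 6269 and 6927 TPM and FBA1, the aldolase, at 6313 and 6766 TPM. ENO2 and FBA1 overlapped, as did ADH1, the fermentative alcohol dehydrogenase, at 4775 and 5381 TPM and CDC19, the main pyruvate kinase, at 4864 and 5227 TPM. PDC6, a minor pyruvate decarboxylase, was the lowest member at 0.55 and 0.92 TPM.

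Several isoforms of the same step stood far apart, and the genes of this paragraph were picked as pairs after their values were seen. PDC1 was 668-fold above PDC5, at 10.4 and 11.7 TPM. CDC19 was 484-fold above PYK2, a pyruvate kinase that is repressed by glucose. ADH1 was 176-fold above ADH2, the glucose-repressed enzyme that oxidises ethanol. HXK2, the main hexokinase in glucose, had 497 and 538 TPM, 84.1-fold above HXK1. The gap was narrower for ENO2 over ENO1, 18.8-fold, and for TDH3 over TDH2, 5.12-fold, where 38.8% and 43.2% of the words of ENO2 and TDH3 are shared with another coding sequence. The same contrast held for isoforms known to be set by oxygen. CYC1, the main cytochrome c, had 758 and 827 TPM and was 111-fold above its hypoxic relative CYC7, and COX5A was 12.3-fold above COX5B. Further pairs lay both nearer and far apart. TEF2 was 1.17-fold above TEF1, EFT2 1.93-fold above EFT1, HMG1 4.76-fold above HMG2 and SSA2 5.15-fold above SSA1. Of the words of EFT2 95.0% are shared. YEF3 was 857-fold above HEF3 and ACS2 was 47.2-fold above ACS1. Each of these pairs was separate in both libraries.

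Genes of hexose carriers were low. The 19 transporter and sensor genes held 0.0758% and 0.0769% of the TPM, and 15 of them stood under 10 TPM against 28.9% of all frames. HXT3, a low-affinity glucose transporter, had 383.0 and 383.5 TPM, and was followed by HXT2 at 180 and 194 TPM and HXT1 at 135 and 129 TPM. RGT2, the sensor of high glucose, had 13.3 and 12.01 TPM. HXT16 was listed at 0, where 3 counts would correspond to 0.137 and 0.0760 TPM. HXT16 shares 96.3% of its words with other frames.

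The 11 elongation genes held 1.57% and 1.63% of the TPM with a median of 941 TPM. HYP2, described below, is a member of this list and enters these values at 0. TEF2 had 4944 and 4807 TPM and TEF1, which encodes the same protein, had 4251 and 4064 TPM, but 95.4% of the words of TEF2 are shared. EFB1, the exchange factor of EF-1 alpha, had 2510 and 2996 TPM and YEF3, the fungal elongation factor 3, had 1212 and 1286 TPM. Initiation and termination factors were lower, with a median of 213 TPM over 32 genes. They were led by TIF2, a gene for the helicase eIF4A, at 858 and 919 TPM, but 90.1% of the words of TIF2 are shared. The 20 cytosolic tRNA synthetases had a median of 180 TPM and lay close together, between CRS1 for cysteine at 69.3 and 67.3 TPM and DED81 for asparagine at 367 and 400 TPM.

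HYP2, the gene of the aerobic form of eIF5A and known as an abundant factor, was listed at 0 in both libraries. Its floor of 3 counts was 0.701 TPM in replicate 1 and 0.382 TPM in replicate 2. The unannotated frame YEL034C-A, on the opposite strand, had 3620 and 3573 TPM. The only open reading frame of its length and strand in that region of R64 lies at chromosome V, 85613 to 86215, and covers 100% of HYP2 (85676 to 86149). The same arrangement recurred. Of the 20 highest frames without annotation 17 could be placed in this way, 15 of them overlap a neighbouring gene on its opposite strand, and 5 stood above that gene. YGL102C, for example, had 1882 and 1888 TPM opposite RPL28 at 1652 and 1841 TPM, and YKL153W had 2013 and 2293 TPM opposite GPM1, the phosphoglycerate mutase gene, at 2865 and 2843 TPM. The library kit keeps strand, but the strand setting of the quantification is not given in the sources used here, so sense and antisense reads cannot be told apart for such pairs, and the levels of both members are uncertain. RPL43A, CDC19, SSB1 and PGK1 were further genes with such a partner. The other placed frames, YDR154C and YOR248W, overlap CPR1 and SRL1 on the same strand. Except for HYP2, the gene compared was the numbered neighbour of highest level. Lower frames without annotation were not searched, so no share over all of them stands beside these counts. Over all 684 frames without annotation the median was 8.89 TPM, against 22.8 TPM for annotated frames.

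Genes that build ribosomes and transcribe RNA had moderate levels. The 74 ribosome biogenesis genes held 1.39% and 1.43% of the TPM, with a median of 90.2 TPM, and all 74 lay above the median of all frames. NOP10, a short protein of the box H/ACA particles that guide pseudouridylation, led with 2780 and 3494 TPM, and by whole length it stood at 926 TPM beside NOP1 at 924 TPM. SNU13, a protein of the other class of nucleolar guide particles, had 925 and 879 TPM and NOP1, the nucleolar methyltransferase fibrillarin, had 656 and 649 TPM. UTP20, a very large processome subunit, was lowest at 32.4 and 25.6 TPM. The 31 RNA polymerase subunits had a median of 108 TPM, led by RPC10, shared by all 3 nuclear polymerases, at 802 and 974 TPM, though by whole length it stood at 370 TPM, below RPB8 at 445 TPM.

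Sequences before these genes were set beside their levels. In the 500 bases before the start codon, searched on both strands of R64, 90.5% of ribosome biogenesis genes held GATGAG, the core of the PAC element, against 28.3% of all genes with a position, and 95.9% held AAAATTT, the core of the RRPE element, against 34.1%. Both were present in 87.8% of this list, against 12.04% of all. ACCCNTACA, a form of the RAP1 site, occurred in 24.6% of ribosomal protein genes and in 1.79% of all genes. TGACTC, the GCN4 site, occurred in 64.0% of 75 amino acid synthesis genes and in 12.6% of all. AGGGG, the stress response element, occurred in 83.3% of the 42 stress genes and in 34.1% of all. These are matches of letters and not evidence of binding. Examples are printed for some of the highest genes with a match, with the matched letters in capitals and 10 bases on each side, 5′ to 3′ on the strand of the gene. Capitals that differ from the letters above are matches on the other strand.
RPL36B, RAP1 form (chromosome XVI, 76535 to 76563, minus strand): ctgtattttcACCCGTACAtccacggatg
RPS21B, RAP1 form (chromosome X, 157597 to 157625, minus strand): atgtgtttacACCCGTACActttatacat
SNU13, PAC (chromosome V, 101535 to 101560, plus strand): caatgggtacGATGAGatcactatac
NOP1, PAC (chromosome IV, 427150 to 427175, plus strand): aattggaaagCTCATCtctcttgaat
SNU13, RRPE (chromosome V, 101474 to 101500, plus strand): tataaaatagAAAATTTgaatatcaag
ILV5, GCN4 (chromosome XII, 839577 to 839602, minus strand): agctcagtagGAGTCAgaacctctgc
BAT1, GCN4 (chromosome VIII, 517351 to 517376, plus strand): tgccttcttaTGACTCaaaattctat
HOR7, STRE (chromosome XIII, 774369 to 774393, plus strand): attctagaacAGGGGctacagtctc
TSA1, STRE (chromosome XIII, 219691 to 219715, plus strand): ttacactactCCCCTatgtgaagga

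Higher genes used more of the preferred codons. A codon adaptation index was computed for 5971 annotated genes, with weights from the ribosomal protein genes themselves, and a preferred codon is the one that those genes use most for its amino acid. The median index was 0.79 in ranks 1 to 100, 0.30 in ranks 101 to 1000, 0.20 in ranks 1001 to 3000 and 0.18 below. The share of preferred codons fell along the same bins, at 76.5%, 48.9%, 39.6% and 36.8%. Across genes the level and the share of preferred codons had a Spearman correlation of 0.49, and of 0.45 over the 5833 genes outside the ribosomal list, which did not set the weights. This is a description across genes of the same libraries. The glycolytic list, which did not set the weights either, had a median index of 0.83. The first 120 coding bases of TDH3, a high gene, and GAL4, the activator of galactose genes and a low one at 5.66 and 4.72 TPM, show the contrast, with 33 and 17 preferred codons in capitals.
TDH3 (chromosome VII, 883691 to 883810, minus strand): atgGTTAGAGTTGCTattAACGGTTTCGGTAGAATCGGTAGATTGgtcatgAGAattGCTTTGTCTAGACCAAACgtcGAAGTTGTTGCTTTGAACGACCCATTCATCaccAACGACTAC
GAL4 (chromosome XVI, 82237 to 82356, minus strand): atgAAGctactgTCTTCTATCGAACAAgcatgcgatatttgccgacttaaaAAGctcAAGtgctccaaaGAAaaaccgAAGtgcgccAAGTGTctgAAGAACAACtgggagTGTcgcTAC

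**Figure D3:**
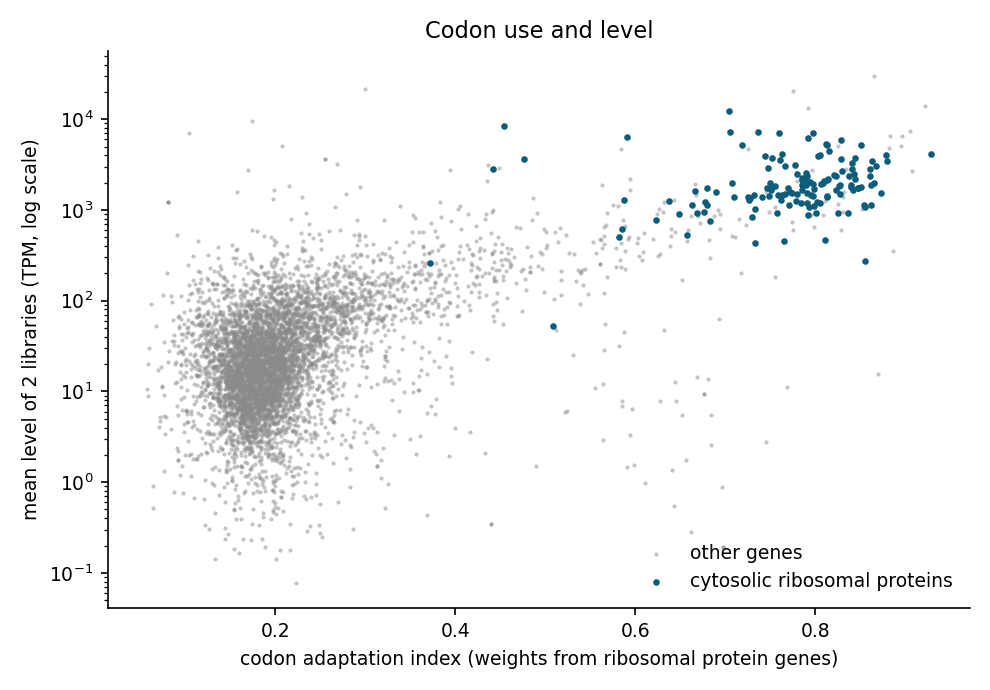
Mean level (TPM, log scale from 0.05) against codon adaptation index for annotated genes, with cytosolic ribosomal protein genes in blue and all others in grey. The ribosomal genes, whose codons define the index, lie to the upper right, while genes of low index span the whole range of levels.

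High genes were also shorter, richer in G and C and more often interrupted. Median coding length was 366, 750, 1089 and 1437 bases in the 4 rank bins, and median GC content was 43.5%, 41.8%, 40.2% and 38.8%. Length correlated with level at -0.26 (Spearman, across genes) and at -0.14 by whole length, which was -0.097 without the ribosomal list. Introns were annotated in 38.9% of ranks 1 to 100 and in 2.15% of ranks 3001 and lower. The 269 genes with introns held 20.2% and 20.6% of the TPM, and 90 of them encode ribosomal proteins. Outside the ribosomal list genes with an intron had a median of 39.4 TPM, against 21.8 TPM for genes without one.

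Most frames near chromosome ends were low. Position was compared over the 5971 annotated nuclear genes that are listed at their annotated length. The 244 frames within 20000 bases of an end had a median of 5.65 TPM, against 24.5 TPM for the 5727 frames farther in. Of the 244 frames 66.4% were under 10 TPM, against 24.1%. Among the exceptions was PHO12, an acid phosphatase gene, the highest of these 244 frames at 544 and 644 TPM, with 91.6% of its words shared. YAL067W-A, at 2480 to 2707 on chromosome I, had 59532 and 55703 TPM. It is not among the 244 because its listed length differs from the annotated one. The 24 seripauperin genes, a family that lies mostly near the ends and is known to rise without oxygen, had a median of 1.55 TPM. Their highest member, PAU9, a short frame with all of its words shared, had 80.2 and 30.1 TPM. By whole length it stood at 10.8 TPM, below PAU23, PAU12 and PAU17. The 5 flocculin genes all stood under 10 TPM, the highest being FLO5 at 9.40 and 8.46 TPM. Over the same 5971 genes, median levels by chromosome lay between 19.0 TPM on VI and 27.8 TPM on XIV. The 763 of these genes on chromosome IV and the 515 on XII held 14.4% and 13.9% of the TPM in replicate 1.

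**Figure D4:**
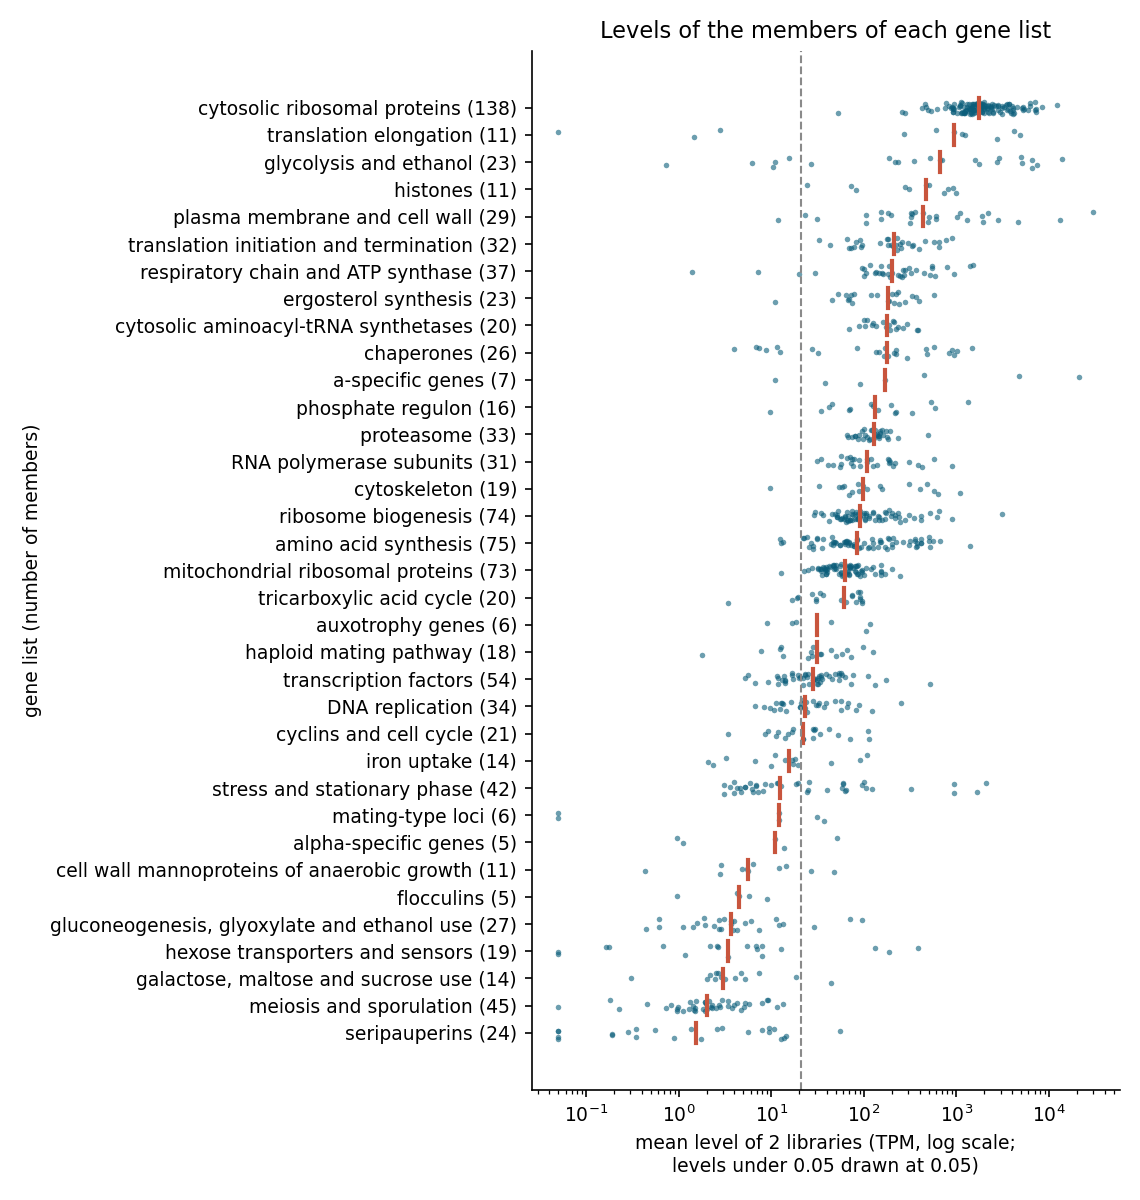
Mean level of every member (points, TPM on a log scale, values under 0.05 drawn at 0.05) of 35 gene lists ordered by median (red bars), with the median of all frames as a dashed line. Lists of growth and housekeeping lie to the right of the line, and lists of meiosis, other sugars, gluconeogenesis and the seripauperins to its left.

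The 29 plasma membrane and cell wall genes held 6.17% and 6.92% of the TPM, and 5.87% by whole length, with a median of 440 TPM. Beside CCW12 and CWP2, PMP1, a small regulator of the plasma membrane proton pump, had 5045 and 4332 TPM, and PMP3, a small membrane protein, had 2747 and 2835 TPM. By whole length PMP1 stood at 949 TPM and PMP3 at 756 TPM. SPI1, a wall protein of stationary cells, was lowest at 11.0 and 12.7 TPM. Ergosterol synthesis genes had a median of 182 TPM over 23 genes. ERG2, a sterol isomerase, led at 567 and 570 TPM and HMG2, the lesser of the paired HMG-CoA reductases under aerobic growth, was lowest at 11.8 and 10.1 TPM.

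The spread within a list differed widely between lists. The 33 proteasome genes had a median of 127 TPM with quartiles at 98.0 and 150 TPM, a ratio of 1.53, against a ratio of 6.53 for all frames of at least 1 TPM. SEM1, a very small subunit of the proteasome lid, was highest at 508 and 478 TPM, and at 316 TPM by whole length, beside 290 TPM for the core subunit PUP3. The quartile ratio was 1.91 for tRNA synthetases and 2.12 for the 73 mitochondrial ribosomal proteins, whose median was 62.2 TPM. It was wider in other lists of complexes, at 2.77 for the respiratory chain, 2.81 for RNA polymerase subunits and 4.25 for histones. By effective length lists that are no complex could be as narrow. Examples are galactose, maltose and sucrose use at 2.06 and transcription factors at 2.60. By whole length the ratio was 1.47 for the proteasome, 1.85 for tRNA synthetases, 1.73 for mitochondrial ribosomal proteins and 1.98 for the respiratory chain. It was 2.40 for RNA polymerase subunits and 3.63 for histones, beside 2.13 for galactose, maltose and sucrose use and 2.42 for transcription factors. Core histone genes were higher, led by HHF2 for histone H4 at 994 and 981 TPM, and CSE4, the histone H3 variant of centromeres, was the lowest of the 11 at 22.9 and 26.0 TPM. ACT1, the actin gene, had 1035 and 1129 TPM. Among 26 chaperones the highest was CPR1, cyclophilin, at 1398 and 1528 TPM. Next came SSB1 at 951 and 1092 TPM, whose product binds nascent chains on the ribosome, and SSA2, the main cytosolic Hsp70, at 939 and 949 TPM. The unannotated frame YDR154C, at 1715 and 1903 TPM, overlaps 49.5% of CPR1 on the same strand. Of the words of SSB1 and SSA2 57.8% and 63.9% are shared, so these levels depend on how reads were divided. HSP26, a small heat shock protein, was lowest at 3.42 and 4.49 TPM.

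Mitochondrial functions differed among themselves. Respiratory chain and ATP synthase genes of the nucleus had a median of 202 TPM over 37 genes, led by COX9, a small cytochrome oxidase subunit, at 1620 and 1370 TPM and ATP15, a small ATP synthase subunit, at 1331 and 1478 TPM. By whole length COX9 (454 TPM) and ATP15 (467 TPM) stood below CYC1 (657 TPM). The 20 genes of the tricarboxylic acid cycle had a median of 60.5 TPM and none reached 100 TPM in the mean, with SDH3, a succinate dehydrogenase subunit, at 103 and 90.8 TPM and ACO1, aconitase, at 87.9 and 94.6 TPM. By whole length ACO1 was highest at 145 TPM. The 28 frames of the mitochondrial genome held 0.0191% and 0.00975% of the TPM, and 27 of them were under 10 TPM. OLI1, an ATP synthase subunit named after its values were seen, was the exception at 136 and 66.5 TPM (49.0 TPM by whole length). How the libraries were depleted of ribosomal RNA or enriched for messages is not given in the sources used here, and mitochondrial messages lack the long poly(A) tails of nuclear ones, so these values were not compared with nuclear genes.

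Amino acid synthesis genes were above most frames in the rich medium, with a median of 84.7 TPM over 75 genes, 72 of them above the median of all frames. ILV5, an enzyme of branched-chain synthesis, had 1354 and 1423 TPM, BAT1, the mitochondrial branched-chain aminotransferase, had 626 and 700 TPM and ASN1, an asparagine synthetase, had 511 and 615 TPM. ARG3, ornithine carbamoyltransferase, was lowest at 11.5 and 13.2 TPM. GCN4, the activator of many of these genes, was the highest of 54 transcription factors at 532 and 513 TPM, though its protein is known to be set mainly by translation. The median factor had 28.1 TPM, and TYE7, an activator of glycolytic genes, was next at 177 and 175 TPM. Auxotrophy genes were also transcribed, with LEU2 at 103 and 127 TPM, URA3 at 109 and 102 TPM, CAN1 at 43.7 and 43.8 TPM, HIS3 at 21.9 and 15.0 TPM, TRP1 at 14.4 and 19.0 TPM and ADE2 at 8.44 and 9.67 TPM. Mutant and intact alleles give the same kind of reads here, so the levels say nothing of function.

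Phosphate genes were higher than most. The 16 genes of the phosphate regulon had a median of 133 TPM and 15 of them lay above the median of all frames. VTC1, of the vacuolar polyphosphate polymerase, had 1299 and 1339 TPM. PHO12 came next with 544 and 644 TPM, though 91.6% of its words are shared. PHO84, the high-affinity phosphate transporter, had 538 and 526 TPM. PHO5, the repressible acid phosphatase, had 312 and 357 TPM, with 19.8% of its words shared. PHO84 and PHO5 are known as genes induced when phosphate is short. The iron list was lower, with a median of 15.5 TPM over 14 genes, where the paired high-affinity uptake genes FET3 (112 and 103 TPM) and FTR1 (90.6 and 92.2 TPM) led.

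Of the 7 markers of MATa cells 6 lay above the median of all frames, ASG7 being the exception, and of the 5 markers of alpha cells 1 did, AFB1. MFA2 and MFA1, the a-factor genes, had 20792 and 21951 TPM and 3985 and 5402 TPM, and by whole length 4463 and 1064 TPM in the mean. They are short, so their effective lengths were 13.8 and 14.5 bases in replicate 1. AGA2, the binding subunit of a-agglutinin, had 443 and 461 TPM (280 TPM by whole length) and STE2, the alpha-factor receptor, had 178 and 162 TPM. BAR1, the protease that degrades alpha-factor, had 86.7 and 95.2 TPM, STE6, the a-factor exporter, had 38.3 and 37.3 TPM and ASG7 had 10.9 and 11.0 TPM. Of the alpha-cell markers STE3, the a-factor receptor, stood at 0.96 TPM in both libraries and MF(ALPHA)1, the major alpha-factor gene, at 1.51 and 0.71 TPM. MF(ALPHA)2 had 13.3 and 14.0 TPM and SAG1, alpha-agglutinin, had 11.4 and 10.8 TPM. AFB1, which encodes the a-factor barrier of alpha cells, went the other way and stood at 42.8 and 59.4 TPM, above STE6 and ASG7 in both libraries. Summed, the 7 a-cell markers had 25534 and 28119 TPM and the 5 alpha-cell markers 69.9 and 85.8 TPM. Most of the a-cell sum came from MFA2 and MFA1, and by whole length the sums were 6276 and 97.7 TPM.
MFA2 (chromosome XIV, 352414 to 352530, plus strand): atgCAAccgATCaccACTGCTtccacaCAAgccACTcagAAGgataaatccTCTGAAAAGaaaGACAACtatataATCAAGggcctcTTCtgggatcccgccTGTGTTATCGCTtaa
MFA1 (chromosome IV, 1385176 to 1385286, plus strand): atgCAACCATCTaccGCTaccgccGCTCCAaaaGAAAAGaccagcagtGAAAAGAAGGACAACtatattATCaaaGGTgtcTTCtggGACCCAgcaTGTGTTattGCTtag
In both whole coding sequences, shown for their length, preferred codons are in capitals, 19 in MFA2 and 21 in MFA1.

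Frames of the mating-type loci ran between 0 and levels somewhat above the median of all frames. The alpha1 frames of HML and MAT were listed at 0, where 3 counts would correspond to 0.594 and 0.325 TPM in replicates 1 and 2. The alpha2 frames of both loci had 11.1 and 13.3 TPM and are identical to each other, so they cannot be told apart. The a1 frame, listed under HMRA1, had 46.0 and 28.0 TPM, and HMRA2, all of whose words are shared, had 30.8 and 31.1 TPM. All words of the alpha2 frames are shared too. Which frames share words with HMRA2 was not tested, so the alpha2 levels cannot be assigned to alpha2 transcripts alone. The reference strain carries alpha at MAT, so a1 reads of an active MATa locus would be counted under HMRA1. The 18 genes of the haploid mating pathway had a median of 30.9 TPM, from FUS3, the mating kinase, at 120.5 and 133 TPM to FUS2, needed for cell fusion, at 2.07 and 1.48 TPM.

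**Figure D5:**
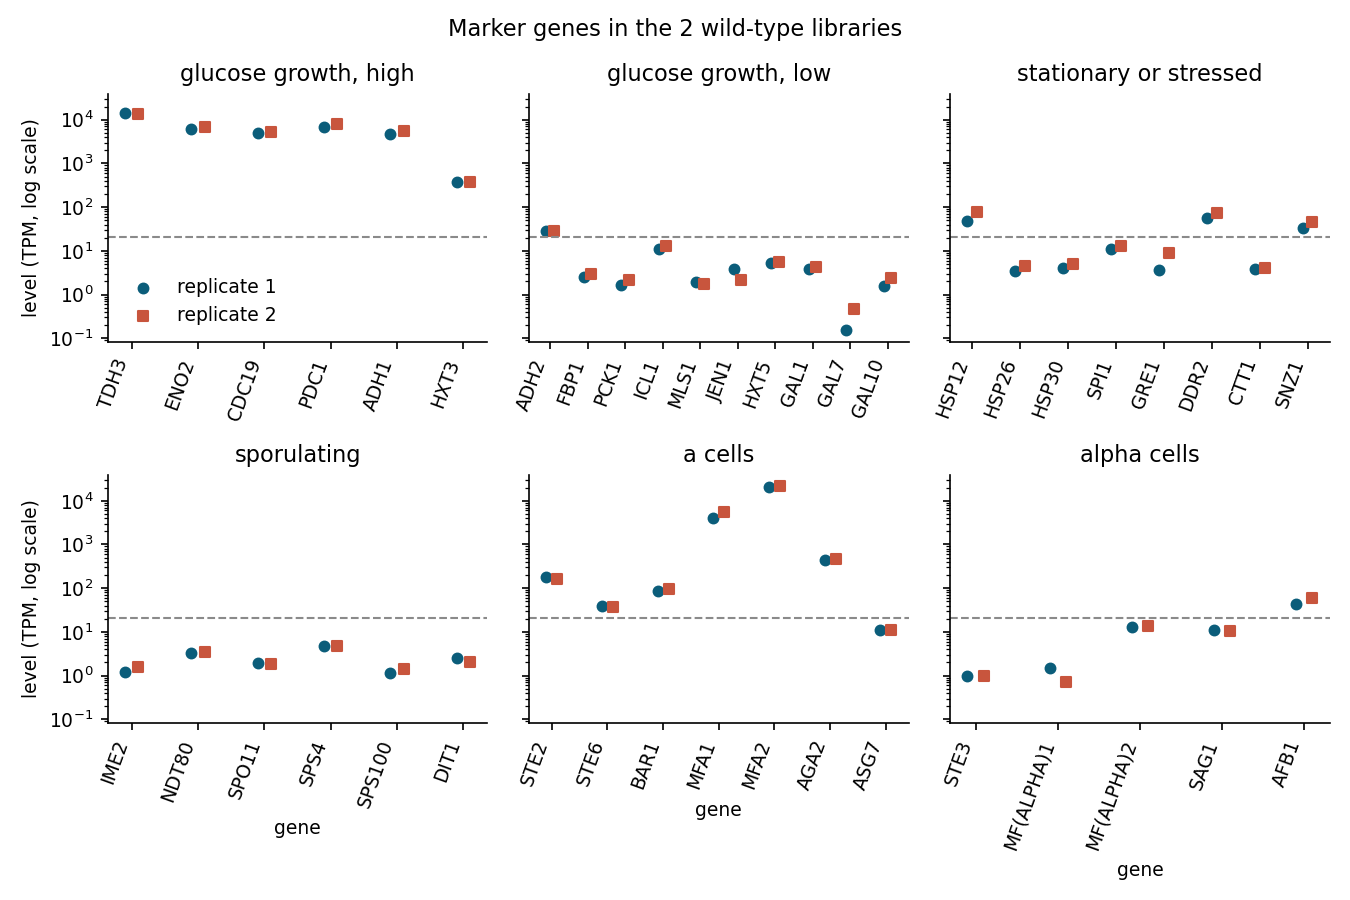
Levels (TPM, log scale) of 6 marker sets in wild-type replicate 1 (circles) and replicate 2 (squares), with the median of all frames as a dashed line. All 6 genes marking growth on glucose lie above the line, all 6 sporulation genes lie below it, and AFB1 is the only alpha-cell marker above it.

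Programs that glucose or growth is known to repress were near the bottom. The 45 meiosis and sporulation genes had a median of 2.01 TPM, and 43 of them were under 10 TPM, against 28.9% of all frames. IME4, the messenger RNA methyltransferase, was highest at 12.9 and 13.6 TPM, while IME2, a kinase of early meiosis, had 1.23 and 1.60 TPM and NDT80, an activator of middle sporulation genes, had 3.36 and 3.44 TPM. PFS1 was listed at 0. The 14 genes for galactose, maltose and sucrose had a median of 3.004 TPM. GAL80, the repressor of the galactose genes, was highest at 40.7 and 47.6 TPM, then SUC2, invertase, at 17.3 and 19.8 TPM. GAL1, galactokinase, had 3.86 and 4.33 TPM and GAL7 had 0.15 and 0.46 TPM from 2 and 11 counts.

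The 27 genes of gluconeogenesis, the glyoxylate cycle and ethanol use had a median of 3.65 TPM, and 21 were under 10 TPM. FBP1, fructose-1,6-bisphosphatase, had 2.49 and 3.01 TPM, PCK1, phosphoenolpyruvate carboxykinase, had 1.66 and 2.18 TPM and MLS1, malate synthase, had 1.92 and 1.79 TPM. ICL1, isocitrate lyase, was higher at 11.1 and 13.1 TPM. ADH2 had 29.2 and 28.5 TPM. MAE1, the mitochondrial malic enzyme, was the highest of the list at 90.0 and 102 TPM. JEN1, the lactate carrier, had 3.92 and 2.17 TPM, both from 94 counts.

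Stress genes were split. Their median was 12.3 TPM over 42 genes, 18 under 10 TPM, but the quartile ratio was 10.5 and the highest members were among the abundant messages. HOR7, a small protein induced by osmotic stress, had 2101 and 2108 TPM but 639 TPM by whole length. The peroxidase genes AHP1 and TSA1 had 1623 and 1703 TPM and 905 and 996 TPM. SOD1, the copper and zinc superoxide dismutase, had 940 and 956 TPM. By whole length AHP1 (1930 TPM), TSA1 (1156 TPM) and SOD1 (1026 TPM) all stood above HOR7. Of the 8 markers of stationary or stressed cells 5 lay below the median of all frames. CTT1, cytosolic catalase, had 3.88 and 4.01 TPM and HSP30 had 4.07 and 5.01 TPM, while HSP12, a membrane-bound heat shock protein, reached 47.6 and 78.7 TPM, DDR2 55.2 and 72.8 TPM and SNZ1, of vitamin B6 synthesis, 33.9 and 45.4 TPM. DDR2 is short, and stood at 20.7 TPM by whole length. The 8 markers summed to 163 and 232 TPM, higher in replicate 2.

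The lists of cell cycle and DNA replication genes had medians near that of all frames. The 21 cyclin and cell cycle genes had a median of 22.2 TPM. SIC1, the inhibitor of B-type cyclins, had 109 and 117 TPM, CLN3, the cyclin at the head of the G1 program, had 107 and 116 TPM and CLB6, an S-phase cyclin, had 3.90 and 2.91 TPM. The 34 DNA replication genes had a median of 23.4 TPM. RNR4 and RNR2, of the small subunit of ribonucleotide reductase, led with 231 and 278 TPM and 119 and 123 TPM, and POL2, the catalytic subunit of DNA polymerase epsilon, was lowest at 6.97 and 6.45 TPM.

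The replicates were close for most frames. Across all ranked frames levels had a Pearson correlation of 0.984 on the log2(TPM + 1) scale, a description across frames of libraries of 1 strain. For the 4763 frames of at least 10 TPM the median absolute log2 ratio of replicate 1 over replicate 2, with 1 TPM added to each, was 0.12. It was 0.22 for frames between 1 and 10 TPM and 0.10 for frames of at least 1000 TPM. A ratio of 2-fold or more was found for 66 frames (1.39%), 51 higher in replicate 1 and 15 higher in replicate 2. Of these 34 were under 300 bases and 28 had no annotation, and such a ratio occurred in 11.9% of the 286 short frames against 0.71% of longer ones. The widest ratios were those of YER138W-A at 196 and 8.27 TPM and YBL107W-A at 49.9 and 2.76 TPM, both higher in replicate 1. They rest on 44.8 and 3.27 and on 11.4 and 1.09 estimated counts, and 69.3% of the words of YER138W-A are shared. In the other direction lay YKL162C-A at 17.2 and 107 TPM, from 5 and 57 counts. RTC3, the only gene with a symbol among the 12 widest, had 3.86 and 20.7 TPM, from 9 and 89 counts.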

How the data were processed

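The deposited tables, 1 per library, give an estimated count and a TPM value for each coding reading frame. Per the submitters' processing notes the tools were kallisto and sleuth, on sacCer3. Version, index and strand setting were not stated in the labels or files. Estimated counts need not be whole because the authors' tool divides reads among similar sequences, and 17.4% and 17.3% were not whole in replicates 1 and 2. The deposited TPM were used after YSH1, ATG7, LTO1 and MSK1 were left out and each library was rescaled to a total of 1000000. Levels by whole length are estimated counts per coding base, rescaled likewise. Depth was 12.48 M and 19.76 M estimated counts, and floors of 3 counts cover counting error only.

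Names, positions, introns and sequences come from the R64 reference (RefSeq), which is S288C and not W-303. Of the ranked frames 6018 were found by systematic name, 99.8% of the 6006 with a coding annotation at the same length. Pandas 2.3.3, numpy 2.4.6 and scipy 1.17.1 under Python 3.11.15 were used, and the scripts were tested on simulated libraries. The frames and the 35 gene lists were chosen with earlier results of these data known, and the pattern for ribosomal proteins was corrected after a look at its members because it had taken in the RNase P gene RPP1.

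Genes were named by rule. The rule takes the 30 highest frames, the 4 highest and the lowest member of a list, all markers, the 6 widest ratios between replicates in each direction, the 5 highest unannotated frames, the ribosomal pairs with the 3 widest and 3 narrowest ratios, and the 5 frames on each side of the rank that holds 50% of the TPM. Overlapping neighbours of unannotated frames, summed ribosomal proteins at the ends of their range, pairs printed for their sequence and isoform pairs were named after their values were seen. No test was run. Alternatives changed the frames kept, the length used, the mean and the libraries.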

Additional observations from a re-analysis of the deposited data

How the results depend on the processing

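Leaving out either replicate gave 96 to 98 frames holding 50% of the TPM, 50.4% to 50.9% in the 100 highest, 6317 to 6338 frames of at least 1 TPM, 4731 to 4791 of at least 10 TPM, 31.9% to 32.2% for ribosomal proteins, 5.47% to 5.81% for glycolysis and a median log2(TPM + 1) of 4.45 to 4.49. The main values were 97, 50.6%, 6354, 4763, 32.0%, 5.64% and 4.47. With a geometric mean each value lay within the range of the single replicates, with 6332 frames of at least 1 TPM. With all frames kept, 58 frames held 50%, the 100 highest held 58.4%, ribosomal proteins 26.6%, glycolysis 4.68%, and the median was 4.22. By whole length 139 frames held 50% and 5212 reached 10 TPM. The 100 highest then held 43.4%, ribosomal proteins 27.6%, glycolysis 8.22%, and the median was 4.90. Without frames under 300 bases 106 frames held 50%, and the other values in that order were 48.9%, 29.6%, 7.50% and 4.85. With annotated frames only 88 frames held 50%, and the other values were 52.5%, 33.4%, 5.88% and 4.63. An alternative chosen after seeing the data, leaving out 16 frames whose length differs from the annotation, gave 112 frames, 47.8%, 34.1%, 6.01% and 4.56. Without frames under 10 counts the median was 4.67, and with a pseudocount of 0.1 it was 4.41. Frames differing 2-fold between replicates numbered 66, 24 by CPM of the estimated counts and, in an alternative added after seeing the data, 40 among annotated frames. The cause was not tested where the alternative's construction does not give it.

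Of 227 named frames, whole length raised 62 and lowered 41 by over 1.5 times. Without replicate 1 the levels of YNL143C, PAU9, MF(ALPHA)1, GAL7 and 11 of the 12 frames with the widest ratios moved that far, and without replicate 2 those of GAL7 and all 12. No paired analysis was possible because no comparison between groups was made. Precision is limited by 2 libraries, and for short frames by effective length.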
